A study of Homo sapiens with 4 samples.

Results

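The m7G peaks of human chromosome 18 were described in HL60 cells and in HL60/MX2 cells. Every row of the 2 deposited peak lists placed on chromosome 18 was taken, which gave 423 of 16192 peaks. HL60 contributed 253 of 8070 peaks and HL60/MX2 contributed 170 of 8122 peaks. HL60, labelled wild type, is an established promyelocytic line of acute myeloid leukemia. HL60/MX2, labelled drug-resistant, is a derivative line known for its selection with mitoxantrone. Both lines were grown in RPMI-1640 with fetal calf serum, and no other treatment is given in the labels. Of the 4 libraries of the series, the m7G-enriched library of each line was analysed here, and the input libraries were not used here. With 1 library per line no difference between the lines was tested. The lists hold no read counts and no RNA levels, so the depth is unknown and the labelled cell type could not be checked against marker genes. All intervals cover counting error only.

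N7-methylguanosine caps the 5' end of mRNA and also occurs inside RNA. In MeRIP-seq, fragments bound by an m7G antibody are sequenced beside the input RNA, and MACS marks the stretches where the enriched reads exceed the input as peaks. Chromosome 18 is a gene-poor chromosome whose long arm holds the desmosomal cadherins, clade B serpins, SMAD2, SMAD4, SMAD7 and BCL2. The karyotype of HL-60 is abnormal and differs between sublines. A gain of chromosome 18 is among the changes that have been described for it, with amplification of MYC as the best known. DNA copy number was not measured here, and its part in the values below was not tested.

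The chromosome was chosen by its peak counts and by the running numbers of its peak names, so these values are descriptions. The running number is the last part of each peak name. It rises along the genome, and most numbers belong to no listed peak. The lists do not state what it counts. The authors kept peaks over exons of protein-coding genes, so the numbers may be read as regions called before that choice, but this reading was not tested.

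Short stretches of sequence show what a peak covered when the lines marked the same place. The lines below give the middle 30 bases, 5' to 3' on the strand of the gene, in hg19 (GRCh37). Capitals mark 2 short motifs that were searched on the gene's strand only and may overlap each other. The motif GGAAR was read as the letters GGAAA, and also as the letters GGAAG. The motif CUGKR was read as CTGGA or as the letters CTGGG, and further as the letters CTGTA or as the letters CTGTG. DSC2, DCC and TMX3 are shown because both lists gave the peak the same start and end, PIEZO2 and ZNF236 because the peaks overlapped, and INO80C and PHLPP1 because their peaks scored high in 1 line. All of these stretches are coding.
DSC2, chr18:28667689-28667718, minus strand: taatcaaaatagaggatgaaaatgataact
DCC, chr18:50961532-50961561, plus strand: gttattggccagttgatactaatttgattg
TMX3, chr18:66377305-66377334, minus strand: gaatgaagttggtcttgagatgaaaagcat
PIEZO2, chr18:10789296-10789325, minus strand: aaagaggaGGAAGaagaGGAAGcgaaggaa
ZNF236, chr18:74680178-74680207, plus strand: gcaggagtctgcaggtcacccggagcagga
INO80C, chr18:33048591-33048620, minus strand: caccggctacctggccctgaGGAAGgccac
PHLPP1, chr18:60612462-60612491, plus strand: catcgaggtctttcccgaagttatgcagct
Either motif was present in the middle 30 bases of 59 of 222 HL60 peaks and 45 of 150 HL60/MX2 peaks long enough to be read. Consecutive 30-base windows over all exons of the chromosome held one in 14880 of 64778 windows. GGAAR was found in 31 of the HL60 middles, in 19 of the HL60/MX2 middles and in 5848 of the exon windows (9.03%). For CUGKR the shares were 13.5% in HL60, 20.7% in HL60/MX2 and 15.9% in the exon windows. Because the motifs were drawn from the peaks of these same data, the shares are descriptions and give no independent support for either motif. Among the stretches shown, those of DSC2, DCC, TMX3, ZNF236 and PHLPP1 held neither motif in these letters, and the rest of each peak is not shown. The middle of the longer HL60/MX2 peak of ZNF236, from 74680219 to 74680248, held CTGGA.

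Chromosome 18 carried 3.14% of all listed HL60 peaks (2.77-3.54%, exact Clopper-Pearson interval), while in HL60/MX2 its share was 2.09% (1.79-2.43%). The ratio of HL60/MX2 to HL60 was 0.672, while the other autosomes together had 7576 and 7713 peaks, a ratio of 1.02. Relative to the length of protein-coding exon on the chromosome, HL60 had 122 peaks per Mb and HL60/MX2 had 83.0. Across the other autosomes these densities ran from 41.3 to 95.3 in HL60, with a median of 66.8, and from 53.6 to 86.9 in HL60/MX2, with a median of 71.2. Chromosome 18 thus ranked 1 of 22 autosomes in HL60 and 2 in HL60/MX2. Its ratio between the lines was the lowest of the 22.

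**Figure D1:**
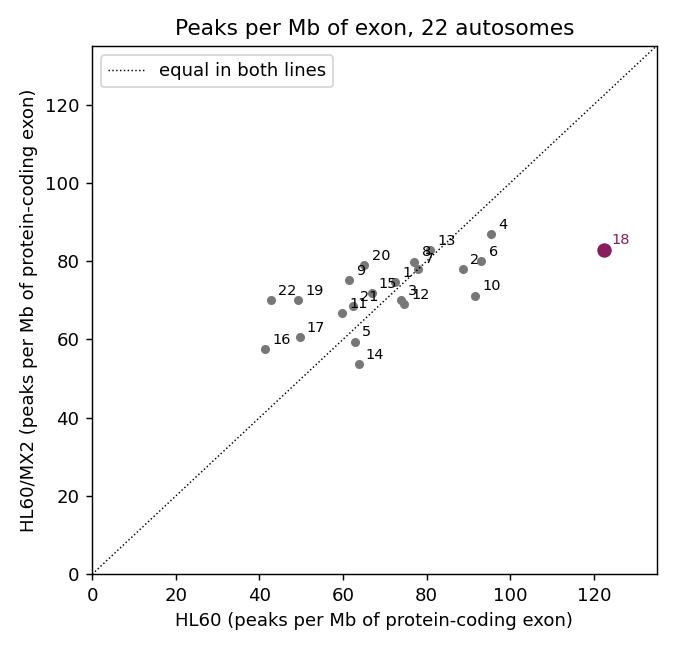
Peaks per Mb of protein-coding exon in HL60 (horizontal axis) and in HL60/MX2 (vertical axis), with 1 point for each of the 22 autosomes and a dotted line where both are equal. Chromosome 18, in purple, lies at 122 and 83.0, to the right of all other points.

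The running number rose by 33535 in HL60 between the first and the last listed peak of the chromosome, or 432 per Mb (428-437, exact Poisson interval). In HL60/MX2 it rose by 21087, or 272 per Mb (269-276). These intervals, like those of the running number below, take the rise as a count of independent events, which the lists do not state. They do not measure variation between libraries. The other autosomes lay between 250 and 350 per Mb in HL60 and between 230 and 349 in HL60/MX2. As a whole chromosome, HL60 was therefore above the range of the other autosomes, and HL60/MX2 was inside it, near their median of 269. The HL60/MX2 value averages sections with unlike rates, 373 per Mb in the first 20 Mb and 228 from 20 to 70 Mb. It therefore does not show that HL60/MX2 was ordinary along the chromosome. The ratio of the lines was 0.630 on chromosome 18 and from 0.741 to 1.00 on the other autosomes.

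Along the chromosome the values per Mb of the lines were close in the first 20 Mb and apart from there on. Close values are not the usual case for this number. The other autosomes, read whole, had ratios of HL60/MX2 to HL60 from 0.741 to 1.00, with a median of 0.840. Up to 20 Mb the number rose by 367 per Mb in HL60 (359-376) and by 373 per Mb in HL60/MX2 (364-381), a ratio of 1.02. From 20 to 70 Mb the rise was 462 per Mb in HL60 (456-468) and 228 per Mb in HL60/MX2 (224-233), a ratio of 0.495. From 70 Mb to the end it was 407 per Mb in HL60 and 292 per Mb in HL60/MX2, a ratio of 0.717. Beside the other autosomes, the ratio of the first section lay slightly above their range, and the ratios of the later sections lay below it. The ratio of the last section was nearer their median than that of the first section. The first section holds a gap without sequence in the assembly, from 15410899 to 18510898 (3.10 Mb). Per Mb of sequence without such gaps, HL60 changed little over the step, from 436 to 463, and HL60/MX2 went from 442 to 229. GC content was 41.0% in the first 20 Mb, 38.9% from 20 to 70 Mb and 42.8% beyond, and its part in the step was not tested.

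Expressed as the rate from 20 to 70 Mb over that of the first 20 Mb, the step was 1.26 in HL60 and 0.613 in HL60/MX2. The HL60/MX2 step divided by the HL60 step was 0.487. On the 14 other autosomes with both sections readable, this quotient ran from 0.657 to 1.20, with a median of 0.965. The assembly gap raised the HL60 step, which was 1.06 per Mb of gap-free sequence, against 0.518 in HL60/MX2.

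In windows of 10 Mb the HL60 values were 454, 278, 466, 462, 461, 474, 434 and 407 per Mb from the short-arm end to the long-arm end. Only the second window, which holds the gap, stood low, and it was 417 per Mb of gap-free sequence. The HL60/MX2 values were 449, 280, 278, 251, 185, 186, 265 and 292 per Mb, with 424 in the second window without the gap. HL60/MX2 thus fell after the second window, was lowest in the fifth and sixth, and was higher again in the last 2. The fifth window of HL60/MX2 was read over only 3.59 Mb between its listed peaks.

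**Figure D2:**
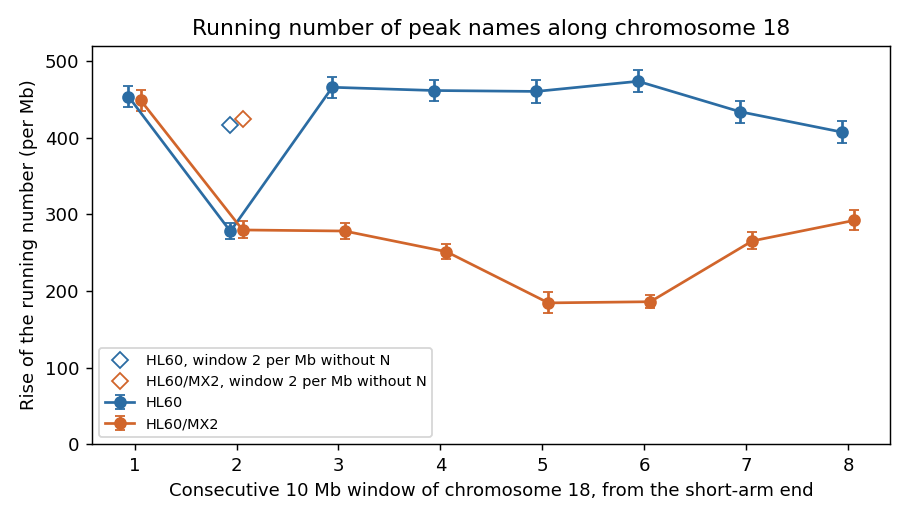
Rise of the running number per Mb (vertical axis) in 8 consecutive windows of 10 Mb along chromosome 18 (horizontal axis), with 95% exact Poisson intervals for counting error. The lines coincide in windows 1 and 2 and are apart in windows 3 to 8, where HL60 stays between 407 and 474 and HL60/MX2 between 185 and 292, and open diamonds give window 2 without the assembly gap.

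Set beside 256 such windows on the other autosomes, the 5 windows from 20 to 70 Mb had ratios of HL60/MX2 to HL60 between 0.393 and 0.611. The other windows had a median ratio of 0.826 (quartiles 0.795 and 0.897), and 2 of them lay at or below 0.611, both of them at 30 to 40 Mb, on chromosome 3 (0.479) and on chromosome 14 (0.496). The first 2 windows of chromosome 18, at 0.989 and 1.01, lay in the upper part of the range, where 25 of the other windows were at or above 0.989. The last window, at 0.717, was below the lower quartile of the others.

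**Figure D3:**
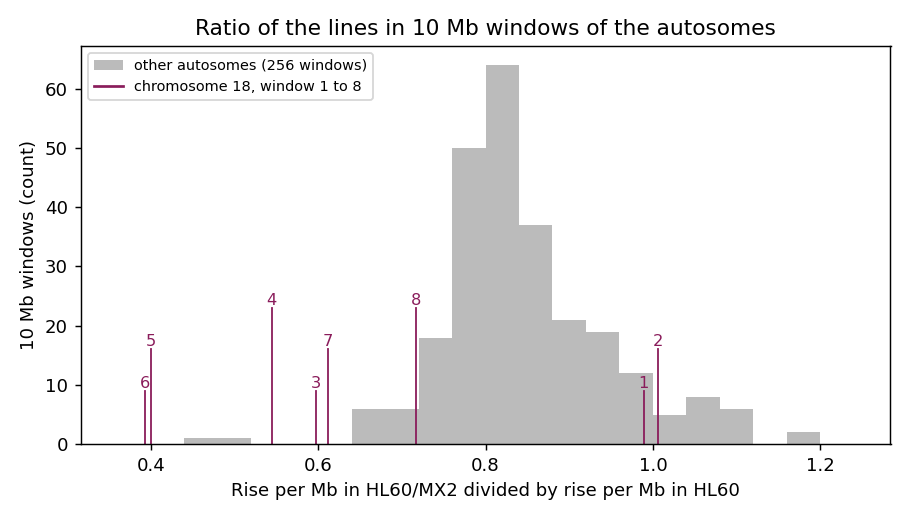
Histogram of the ratio of the rise per Mb in HL60/MX2 to that in HL60 over 256 windows of 10 Mb on the other autosomes, in grey, with the 8 windows of chromosome 18 as numbered purple lines. Windows 3 to 7 lie from 0.393 to 0.611, left of nearly all grey bars, and windows 1 and 2 lie near 1.

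The peaks found in both lists give the running number at the same place in each line, which removes the difference in where the listed peaks begin and end. From L3MBTL4 to SPIRE1, on the short arm between 6244492 and 12463404, the number rose by 2644 in HL60 and by 2817 in HL60/MX2, a ratio of 1.07. Across the centromere, from SPIRE1 to LAMA3 at 21496546, the ratio was 0.906. From LAMA3 to CDH2 it was 0.615, from CDH2 to DSC2 0.536 and from DSC2 to the nearer peak of PIK3C3 0.550. The lowest ratio was between PIK3C3 and ATP5F1A, from 39606609 to 43684103, where HL60 rose by 2020 and HL60/MX2 by 717 (0.355). Between ATP5F1A and RNF165, only 0.230 Mb apart, it was 0.607. It was near the lowest value again from RNF165 to DCC (0.383), from DCC to C18orf54 (0.375) and from C18orf54 to FECH (0.377). Then it was 0.506 from FECH to DSEL, 0.591 from DSEL to TMX3 and 0.645 from TMX3 to ZNF236. Reading from LAMA3 to TMX3 as a whole, HL60 rose by 463 per Mb and HL60/MX2 by 225, a ratio of 0.486.

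Interpolating the numbers between listed peaks in windows of 4 Mb put the change between 17 and 25 Mb. The ratio was 0.865 from 17 to 21 Mb and 0.616 from 21 to 25 Mb. It went from 0.548 at 33 to 37 Mb to 0.382 at 41 to 45 Mb, was lowest at 49 to 53 Mb (0.356) and was 0.595 at 61 to 65 Mb. In HL60 the same windows from 21 Mb on stayed between 423 and 482 per Mb.

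The listed peaks were divided along the chromosome much as the running number was. In the first 20 Mb HL60 had 58 peaks and HL60/MX2 had 56. From 20 to 70 Mb the counts were 171 and 90, a ratio of 0.526. From 70 Mb to the end both had 24, where the running number had a ratio of 0.717. Per Mb of exon, HL60 had 103 (78.1-134), 137 (117-159) and 91.8 (56.1-142) in these sections, and HL60/MX2 had 101 (76.5-132), 70.7 (56.6-87.2) and 106 (66.9-158). The exact Poisson intervals of the lines were apart only from 20 to 70 Mb. For every 1000 running numbers the sections held from 7.74 to 8.04 listed peaks in HL60, and 7.61, 8.24 and 11.9 in HL60/MX2, with overlapping intervals. Each value divides all peaks of a section by the rise from its first to its last listed peak. Numbers at the section edges are left out, so section values read high beside the whole chromosome. Over the whole chromosome HL60 had 7.54 (6.64-8.53) and HL60/MX2 had 8.06 (6.90-9.37), and each line's whole list, at 8.56 and 10.4, lay above its interval. The running number and the listed peaks come from the same peak calls and are not independent of each other.

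**Figure D4:**
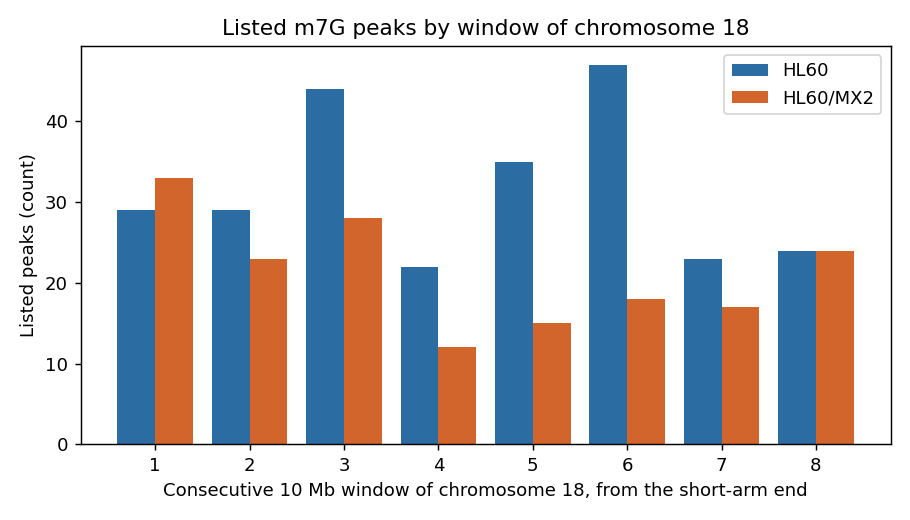
Number of listed peaks (vertical axis) of HL60 and HL60/MX2 in the 8 consecutive windows of 10 Mb of chromosome 18 (horizontal axis). The bars are of similar height in window 1 (29 and 33), differ most in window 6 (47 and 18) and are equal in window 8 (24 and 24).

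By window, HL60 had 29, 29, 44, 22, 35, 47, 23 and 24 peaks and HL60/MX2 had 33, 23, 28, 12, 15, 18, 17 and 24. The densest window in exon terms was the third in both lines, with 194 peaks per Mb of exon in HL60 and 124 in HL60/MX2. That window holds LAMA3, CDH2 and the desmosomal cadherins. HL60/MX2 had its lowest density in the fifth window, with 40.0 per Mb of exon.

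HL60 peaks fell in 131 of the 266 protein-coding genes of the chromosome (49.2%), and HL60/MX2 peaks in 106 (39.8%). Over all 20163 genes the shares were 26.4% and 28.5%. Exon length per gene had a median of 6224 bp on chromosome 18 and 4365 bp elsewhere, and on chromosome 18 genes that carried a peak had 7375 bp and the others 4534 bp. Its part in the share of genes with a peak was not tested. A peak in both lines was found in 68 genes (background 12.0%), a peak of HL60 alone in 63 (background 14.4%) and of HL60/MX2 alone in 38 (background 16.5%).

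These classes differed along the chromosome. Of 74 genes that begin in the first 20 Mb, 11 (14.9%) had only HL60 peaks and 15 (20.3%) only HL60/MX2 peaks. Of 163 genes that begin between 20 and 70 Mb, 48 (29.4%) had only HL60 peaks and 17 (10.4%) only HL60/MX2 peaks. Of 29 genes beyond 70 Mb, 4 and 6 did. Between 20 and 70 Mb, 61 genes had more peaks in HL60, 28 had more in HL60/MX2 and 17 had the same number.

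The gene with the most HL60 peaks was PIEZO2, a mechanically gated ion channel, which lies within the first 20 Mb. It carried 9 HL60 peaks, with scores from 54.5 to 1050, and 2 HL60/MX2 peaks, with scores of 716 and 1193. Scores are the deposited peak values, whose scale is unstated, and they can be read only within a list. One pair of PIEZO2 peaks overlapped, at the GGAAG-bearing stretch printed above, where the HL60 peak scored 55.9 and the HL60/MX2 peak 716. Over the first 20 Mb as a whole the running number rose by 367 per Mb in HL60 and 373 per Mb in HL60/MX2. PIEZO2 was named for its peak count, and any relation of its peaks to the running number was not tested.

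The laminin genes, which encode chains of the basement membrane, were spread over both lists. LAMA1, on the short arm, had 5 HL60 peaks and 7 HL60/MX2 peaks. LAMA3, on the long arm, had 7 in HL60 and 5 in HL60/MX2. Each shared 1 peak between the lines, and the shared LAMA3 peak scored 142 in HL60 and 423 in HL60/MX2. GREB1L had 5 and 4 peaks with no overlap, all in coding sequence.

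Genes with at least 3 more peaks in HL60 numbered 18 (6.77% of the genes of the chromosome, background 1.20%), and 15 of them begin between 20 and 70 Mb. Genes with at least 3 more in HL60/MX2 numbered 2 (0.752%, background 0.764%), both in the first 20 Mb. These were LDLRAD4, with 0 in HL60 and 3 in HL60/MX2 at scores from 646 to 1001, and MTCL1, with 1 and 4. The difference of 3 was used to choose the genes, so the counts describe them.

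TCF4, an E-protein transcription factor, had 4 HL60 peaks and 0 HL60/MX2 peaks. Its strongest HL60 peak, from 52892655 to 52892890 with a score of 1178, ranked 3 on the chromosome. DCC, the netrin receptor, had 5 HL60 peaks and 1 HL60/MX2 peak, which had the same start and end as an HL60 peak and covered a whole exon. ASXL3, a Polycomb-associated chromatin gene, had 5 peaks in HL60 with scores from 90.4 to 552, and 1 in HL60/MX2 with a score of 56.2. C18orf54 also had 5 and 1.

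The membrane traffic motor MYO5B, the formin FHOD3, the ubiquitin ligase NEDD4L and the urea transporter SLC14A2 each had 4 HL60 peaks and 0 HL60/MX2 peaks. SLC14A1, which lies beside SLC14A2 and encodes the other urea transporter, had 3 and 0. All 7 peaks of the urea transporters lay between 43216955 and 43319275, inside the stretch from PIK3C3 to ATP5F1A where the running number of HL60/MX2 rose least beside that of HL60. ALPK2, DSC3, DSG3, MEP1B and ST8SIA3 had 3 HL60 peaks and 0 HL60/MX2 peaks, and RTTN and NETO1 had 4 and 1.

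**Figure D5:**
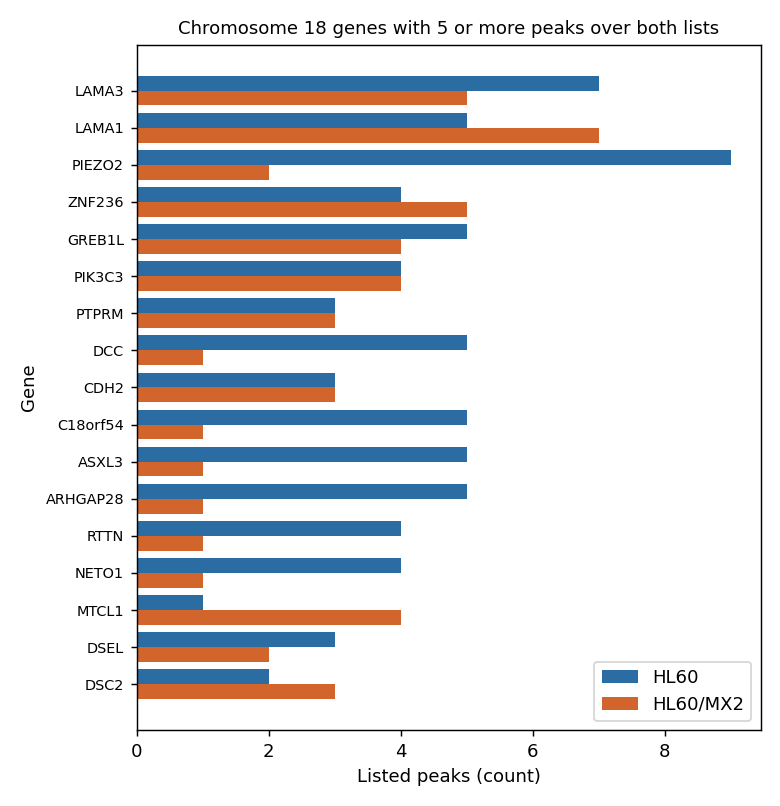
Number of listed peaks (horizontal axis) in HL60 and HL60/MX2 for the 17 genes of chromosome 18 with 5 or more peaks over both lists (vertical axis). PIEZO2 shows 9 and 2, MTCL1, LAMA1, ZNF236 and DSC2 have the longer bar in HL60/MX2, and DCC, C18orf54, ASXL3 and ARHGAP28 show 5 and 1.

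The gene lists below were drawn up with earlier results of these data known, so their counts are descriptions, and nothing particular to a list is read from them. Over all genes of chromosome 18, 63.5% had a peak in at least 1 line and 36.5% in neither, and over all chromosomes 42.9% and 57.1%. The listed cadherin superfamily genes, calcium-dependent adhesion proteins, numbered 11. All of them had a peak in HL60, where 49.2% of the genes of the chromosome did, and 7 also had one in HL60/MX2, where 39.8% did. CDH2, or N-cadherin, had 3 peaks in each line, 1 of them shared over 11 bp. The 7 desmosomal genes DSC1 to DSC3 and DSG1 to DSG4 lie side by side, with 12 HL60 peaks and 9 HL60/MX2 peaks. DSC3, DSG1, DSG3 and CDH7 had peaks in HL60 only. DSG2 had 1 in HL60, with a score of 79.9, and 3 in HL60/MX2, the highest at 1302. The DSC2 peak from 28667632 to 28667776 was the same in both lists, with scores of 313 and 288. These are proteins of epithelial junctions, and whether their RNA was present in the cells was not measured here.

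Of the 10 clade B serpins, inhibitors of proteases that form 1 cluster, 2 had a peak in both lines, 2 in HL60 only and 6 in neither, where the shares over the chromosome were 25.6%, 23.7% and 36.5%. The serpin counts in both lines and in HL60 only were near those shares. SERPINB2 and SERPINB11 were those in both, with 1 peak in each line and no overlap. Their scores ran from 79.9 to 101. In the list of transporters and receptors, 5 of 10 genes had a peak, beside 63.5% of all genes of the chromosome. MC2R, the ACTH receptor, had 1 and 2 peaks, and AQP4, SLC14A1, SLC14A2 and MC4R had peaks in HL60 only.

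In the list of TGF-beta signalling and transcription factors, 3 of 16 genes had a peak in both lines, 3 in HL60 alone and 4 in HL60/MX2 alone. Over all genes of the chromosome these shares were 25.6%, 23.7% and 14.3%, and the list as a whole, with 6 genes in neither line, was near the chromosome's 36.5%. SMAD4, the common mediator SMAD, had 1 peak in HL60 that covered a whole exon, from 48554798 to 48555035 with a score of 282. SMAD2 and SMAD7 had no listed peak in either line. SETBP1, a gene mutated in myeloid neoplasms, had 2 peaks in HL60, and the one with a score of 1120 ranked 4 on the chromosome. TGIF1, GATA6, NFATC1 and TSHZ1 had peaks in HL60/MX2 only.

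Among 16 genes of apoptosis and signalling kinases, 4 had a peak in both lines, 8 in HL60 alone and 0 in HL60/MX2 alone, beside 25.6%, 23.7% and 14.3% of all genes of the chromosome. PIK3C3, the class III phosphoinositide kinase of autophagy, had 4 peaks in each line and 2 shared pairs. PHLPP1, a phosphatase of AKT, had 1 peak in HL60 with a score of 160 and 3 in HL60/MX2, the highest of which, at 2389, ranked 2 on the chromosome. BCL2, the anti-apoptotic gene, had no listed peak in either line, and the same held for PMAIP1, MALT1 and ROCK1.

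For chromatin, replication and mitosis, 5 of 20 genes had a peak in both lines, 8 in HL60 only and 1, CTDP1, in HL60/MX2 only. The first of these counts was near the 25.6% of all genes of the chromosome, and the other shares over the chromosome were 23.7% and 14.3%. The 8 included MBD2, a reader of DNA methylation, INO80C, a remodeller subunit whose HL60 peak scored 1074, and POLI, a translesion polymerase with 2 peaks. KATNAL2 had 1 HL60 peak with a score of 113 and 3 HL60/MX2 peaks with scores from 355 to 1462. SMCHD1, MBD1, CXXC1, NDC80, TYMS and CHMP1B had none in either line.

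Of the 14 listed genes of RNA processing, cap and translation, 10 had no peak, beside 36.5% of all genes of the chromosome and 57.1% of all genes. RNMT, the enzyme that methylates the mRNA cap at guanine N7, had no listed peak in either line. CTIF, a translation factor bound to the nuclear cap-binding complex, had 1 peak in HL60/MX2, from 46284290 to 46284508 with a score of 190. NOL4 had 1 and 2 peaks. In the list of lipid, vesicle and organelle genes, 5 of 20 had a peak in both lines, 3 in HL60 alone and 2 in HL60/MX2 alone, close to the 25.6%, 23.7% and 14.3% of all genes of the chromosome, and the peak counts were 10 for HL60 and 13 for HL60/MX2. FECH, which inserts iron into heme, had 1 HL60 peak with a score of 1047 and 3 HL60/MX2 peaks with scores from 124 to 209. In the list of laminins and membrane or adhesion proteins, all 12 genes had a peak in at least 1 line, beside 63.5% over the chromosome, with 42 HL60 peaks and 21 HL60/MX2 peaks. Their exons were long, with a median of 12918 bp per gene against 6224 bp over the chromosome, and its part in the count was not tested.

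A peak of each line overlapped on the same strand in 19 pairs, in 17 genes. As a share of each list on the chromosome they made up 7.51% in HL60 (4.58-11.5%, exact Clopper-Pearson interval, background 6.13%) and 11.2% in HL60/MX2 (6.86-16.9%, background 6.09%). The median overlap was 116 bp, from 1 bp in ZNF236 to 367 bp in C18orf54. The same start and end were given for 4 pairs, in DSC2, ATP5F1A, DCC and TMX3. Of the pairs, 5 lay in the first 20 Mb, 12 from 20 to 70 Mb and 2 beyond. Among the 68 genes marked in both lines, the peaks did not overlap in the other 51, and over all chromosomes this held for 81.0% of 2423 such genes.

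The highest score of the chromosome fell in the same gene in both lines. ZNF236, a zinc finger gene, carried a peak near its stop codon from 74680171 to 74680214 in HL60 and from the same start to 74680297 in HL60/MX2, both with a score of 3100. That value was given to 8 peaks in HL60 and to 53 in HL60/MX2 over the whole genome. It was the highest score of the HL60/MX2 list, while HL60 scores reached 3177 on other chromosomes. The equal scores cannot be read as equal enrichment. The next HL60 peak, from 44554573 to 44554978 with a score of 1317, lay over no protein-coding exon on its strand. In HL60/MX2 the scores after ZNF236 and PHLPP1 were MPPE1 (1630), KATNAL2 (1462) and POTEC (1323). POTEC belongs to a family of near-identical copies, so its peak is uncertain in place.

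The median length of the peaks of chromosome 18 was 141 bp in HL60 (quartiles 71 and 229) and 123 bp in HL60/MX2 (quartiles 67.2 and 222), against 129 and 133 bp on the other chromosomes. The longest were 1057 bp, in AQP4 in HL60, and 837 bp, in COLEC12 in HL60/MX2. The median score was 205 in HL60, beside 197 on the other chromosomes, and 237 in HL60/MX2, beside 260. Within HL60/MX2 the median score was 288 in the first 20 Mb, 237 from 20 to 70 Mb and 145 beyond, and within HL60 it was 199, 207 and 254.

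Peaks that covered a whole exon made up 25.3% in HL60 (20.1-31.1%) and 18.8% in HL60/MX2 (13.2-25.5%), beside 22.5% and 20.4% on the other chromosomes. Of the 210 HL60 peaks placed on the longest coding transcript of their gene, 65.7% (58.9-72.1%) lay in the CDS and 24.8% (19.1-31.2%) in the 3'UTR, beside 64.0% and 20.9% on the other chromosomes. Of 143 placed HL60/MX2 peaks, 62.9% (54.5-70.9%) lay in the CDS and 17.5% (11.6-24.7%) in the 3'UTR, beside 59.8% and 18.2%. Within 100 nt of the start codon lay 4.76% (2.31-8.58%) and 5.59% (2.45-10.7%), beside 7.12% and 12.1% on the other chromosomes. For HL60/MX2 the interval of chromosome 18 was below the value of the other chromosomes. Within 100 nt of the stop codon lay 2.86% (1.06-6.11%) in HL60 and 8.39% (4.41-14.2%) in HL60/MX2, beside 4.62% and 4.25%. For HL60/MX2 this interval was above the value of the other chromosomes, but with the midpoint of a peak deciding its place it was 7.86% (3.99-13.6%) beside 4.21%, and the interval then held that value.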

How the data were processed

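Peak lists of 1 m7G-enriched library per line were analysed. The authors trimmed reads with Cutadapt (1.9.3), aligned them to hg19 with Hisat2 (2.0.4), called peaks with MACS and chose those on exons of protein-coding genes. The version and settings of MACS are not given in the sources used here. The score of each peak is the value the authors deposited, on an unstated scale. Starts were turned to count from 1. The genome was GRCh37 (chromosome 18 of 78077248 bp) with GENCODE release 44 placed on it, and a peak was given to the protein-coding gene of largest exon overlap on its strand. The running number was read from the first to the last listed peak of a window spanning at least 3 Mb. Peaks that overlapped by 1 bp or more, strand matched, were shared. No test was made, since each line has 1 library. Intervals (95%) were exact Clopper-Pearson or Poisson. Genes named were the members of the gene lists that carry a peak, the 10 genes with the most peaks, those with shared peaks, the 5 highest scores and the longest peak per list, and genes differing by at least 3 peaks. GREB1L and PIK3C3 fall under the most peaks, and MPPE1 and POTEC under the scores. List members named as having no peak, such as BCL2 and RNMT, fall outside this rule and were named after their values were seen. The input libraries and the RNA sequencing were not analysed here. The members and lists were chosen with earlier results of these data known. Alternatives covered the score, peak length, overlap, gene assignment, exons, gaps, the place of the step and the region rule. Steps were checked on simulated data and run in Python 3.11.15, numpy 2.4.6, scipy 1.17.1 and matplotlib 3.10.9.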

Additional observations from a re-analysis of the deposited data

Results flagged for a closer look

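With the assembly gap included, the step of the running number at 20 Mb was in opposite directions in the lines. The rate from 20 to 70 Mb over that of the first 20 Mb was 1.26 in HL60 and 0.613 in HL60/MX2, with 1 library each. Per Mb of gap-free sequence the step was 1.06 in HL60, where the rate changed little, and 0.518 in HL60/MX2. The difference was not tested.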

How the results depend on the processing

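With 1 library per line, no replicate could be left out and the precision is limited by the number of listed peaks. No paired analysis was possible because each line has 1 library. Of 48 values recomputed under an alternative, 28 stayed within 1.5 times of a count or within the counting interval of a share or rate. Another 20 moved and 0 changed direction. Counts, shares and rates have no direction to change, so that 0 bears only on the steps and on the ratio between the lines. Keeping scores at or above the list median left 134 HL60 and 79 HL60/MX2 peaks, 64.5 and 38.5 per Mb of exon, 31 genes with a peak in both lines and 7 shared peaks, with a ratio between the lines of 0.590. Peaks of at least 50 bp gave 104 and 69.0 per Mb of exon, and exons of the longest coding transcript gave 167 and 114. An overlap of 50% of both peaks left 12 shared peaks. Counting only bases that are not N, the running number rose by 452 per Mb in HL60 against 285 in HL60/MX2, with steps of 1.06 and 0.518. With the step at 15 Mb, which moves the gap into the later section, it was 1.05 and 0.519, and at 25 Mb it was 1.19 in HL60. Reading the number only between shared peaks gave 1.09 and 0.496. That alternative and the interpolation in windows of 4 Mb were chosen after seeing the data. The filters on score and length leave fewer peaks by construction, and the exon choice leaves less exon. The causes of the moves were not tested.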
